A study of Mus musculus with 8 samples.

Results

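The genes described here encode 3 cytokines of the interleukin 1 family (Il1a, Il1b and Il18), 2 soluble inhibitors (Il1rn and Il18bp), 3 receptor chains (Il1r1, Il1rap and Il1r2) and 2 components of the inflammasome (Nlrp3 and Casp1). All 10 were chosen by symbol. Each matched 1 of the 47643 gene identifiers of the macrophage count table and 1 of the 52458 entries of the plasma cell table.

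Bulk RNA had been sequenced from 8 libraries of bone marrow cells from wild-type mice of strain B6, 2 libraries in each of 4 groups, and no age is stated. For 2 groups, GFP-expressing Vk*MYC myeloma cells purified by CD138 had been placed in the tibia, and macrophages of the tumour-bearing marrow (TAM, tumour-associated macrophages) were sorted on high F4/80 and low CD11b. Vk*MYC is a transgenic mouse model in which MYC is switched on in B lineage cells and plasma cell tumours arise; the injected cells are such a tumour, and the hosts were not transgenic. The GFP+ fraction, called TAM-IC, was taken as in contact with myeloma, and the GFP- fraction, called TAM-NIC, as without contact. Bone marrow macrophages of naive mice, which carried no tumour, were the control. The remaining group is labelled only as plasma cells. The protocol speaks both of Vk*MYC myeloma and of polyclonal plasma cells of naive mice, and which of these each library held is not stated. The TAM libraries are numbered by mouse, the naive ones by replicate, and nothing states how many animals gave each library, so p-values measure only the spread between these samples, which may be technical. Replicates 1 and 2 are always given in that order.

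Interleukin 1 alpha and interleukin 1 beta are inflammatory cytokines that act through the same receptor, and macrophages and monocytes are among their main sources. The beta form and interleukin 18 are made as inactive precursors that caspase-1 cuts once an inflammasome, such as the one built on NLRP3, has assembled, so transcript level alone does not give the amount of active cytokine. In bone marrow, interleukin 1 beta is known as an inducer of interleukin 6 in stromal cells, a growth factor for myeloma cells.

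The macrophage libraries held 28887725 to 46873056 counts, and a count of 0 there allows up to 0.064 to 0.104 CPM (counts scaled to the library's total of counts), covering counting error only. Replicate 2 of TAM-NIC stood apart. In that library 9.13% of counts fell on immunoglobulin genes, against 0.166% to 0.632% in the other 5 macrophage libraries, and the correlation of log2 CPM between replicates across 12383 genes was 0.873 in that group, against 0.965 in TAM-IC and 0.977 in naive macrophages. The replicates numbered mouse 2 cannot both have come from the same single animal, since TAM-IC replicate 2 had 0 CPM of Xist and 88.4 CPM of the Y-linked gene Ddx3y, and TAM-NIC replicate 2 had 40.4 and 0.258 CPM. The labelled cell type was also not pure in its transcripts. All 16 resident macrophage markers were detected in every macrophage library, with a summed level of 6007 to 7357 CPM in TAM-IC, 21392 to 30413 CPM in TAM-NIC and 20450 to 43385 CPM in naive macrophages. The 14 neutrophil markers, likewise all detected, summed to 31097 to 53633 CPM in TAM-IC, 9710 to 20386 CPM in TAM-NIC and 54002 to 84802 CPM in naive macrophages.

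**Figure D1:**
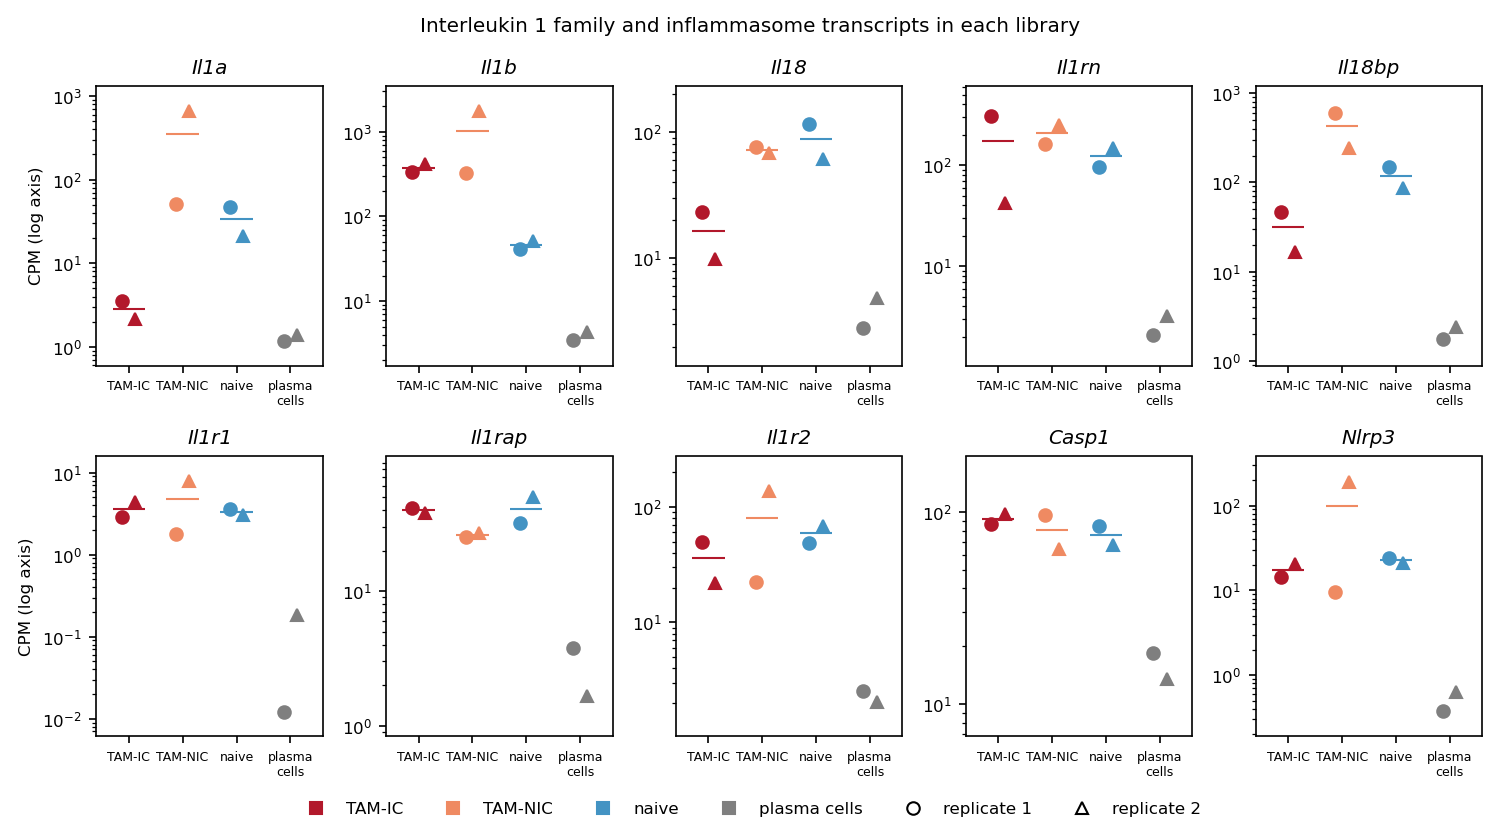
CPM of each of the 10 transcripts (log axis) in every library, with circles for replicate 1, triangles for replicate 2 and a line at the mean of each macrophage group. Il1a lies under 4 CPM in both TAM-IC libraries and above 20 CPM in the other 4 macrophage libraries, while Il1b is above 300 CPM in all 4 TAM libraries and under 60 CPM in both naive ones.

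The cytokine genes of the group differed in direction. In TAM-IC, Il1a and Il18 were at the lowest levels of the 3 macrophage groups, whereas Il1b was 9.08-fold higher than in naive macrophages. In TAM-NIC, both Il1a and Il1b lay above naive macrophages, by 11.2-fold and 24.2-fold, and Il18 did not separate from naive. With 2 libraries a group, edgeR's quasi-likelihood test called none of these differences at an adjusted p under 0.05, while DESeq2 called each of them except that of Il18 in TAM-NIC. Without TAM-NIC replicate 2, the log2 fold change of TAM-NIC over naive fell from 3.49 to 0.71 for Il1a and from 4.60 to 2.97 for Il1b.

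Il1a encodes interleukin 1 alpha, which is active without caspase-1 cleavage and can be released by dying cells. The gene (ENSMUSG00000027399.1) lies on GRCm38 chromosome 2 from 129299610 to 129309972 on the minus strand, exons, introns and UTRs included. It stood at 3.55 and 2.16 CPM in TAM-IC, 50.5 and 659.5 CPM in TAM-NIC, and 47.5 and 21.01 CPM in naive macrophages. The TAM-IC libraries were below all others, and the TAM-NIC libraries were above both naive ones, replicate 1 by a small margin. The log2 fold change was -6.92, with an SE of 1.35 at n = 2 per group, for TAM-IC over TAM-NIC, with an adjusted p of 0.148 in edgeR and 1.17e-10 in DESeq2. Over naive macrophages it was -3.44 ± 1.16 in TAM-IC (adjusted p = 0.287 in edgeR and 0.00642 in DESeq2) and 3.49 ± 1.15 in TAM-NIC (0.262 in edgeR and 0.00697 in DESeq2). Without TAM-NIC replicate 2 the last value was 0.71 and the first -4.18. In another fit edgeR called TAM-IC lower than naive when only those 2 groups entered (adjusted p = 0.0334). Without TAM-NIC replicate 1, which leaves 1 library in that group, the log2 fold change of TAM-IC over TAM-NIC was -7.79.

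Il1b encodes interleukin 1 beta, the inflammasome-dependent form. It is the neighbour of Il1a on the same strand (ENSMUSG00000027398.13, chromosome 2, 129364570 to 129371139), with 54597 bases between them. The 250 bases upstream of the annotated starts are shown for both genes, because the neighbours lay on opposite sides of the naive level in TAM-IC, and for Nlrp3, because Nlrp3, Il1a and Il1b all had their highest level in the same library. All 10 genes had an entry in the RefSeq promoter table on GRCm38.p6, from which the sequences come. They are written in the direction of transcription and stop before the first base of the RefSeq transcript, for Nlrp3 the more upstream of its annotated starts. Capitals mark matches, on either strand, to 5 motifs that were searched, in letters AP-1 TGANTCA, PU.1-like GAGGAA, NF-kB-like GGGANNNNCC, C/EBP-like TTGCNNAA and interferon response element-like GAAANNGAAA.
Il1a, chr2:129309973-129310222, minus strand: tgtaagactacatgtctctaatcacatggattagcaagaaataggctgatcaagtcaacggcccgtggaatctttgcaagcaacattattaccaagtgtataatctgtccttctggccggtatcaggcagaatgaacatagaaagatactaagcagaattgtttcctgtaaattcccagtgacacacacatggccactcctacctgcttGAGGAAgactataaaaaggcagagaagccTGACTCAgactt
Il1b, chr2:129371140-129371389, minus strand: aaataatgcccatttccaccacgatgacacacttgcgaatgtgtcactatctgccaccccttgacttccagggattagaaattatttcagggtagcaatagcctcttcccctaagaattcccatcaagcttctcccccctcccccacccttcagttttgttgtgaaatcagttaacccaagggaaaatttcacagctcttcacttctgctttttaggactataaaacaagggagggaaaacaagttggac
Nlrp3, chr11:59541319-59541568, plus strand: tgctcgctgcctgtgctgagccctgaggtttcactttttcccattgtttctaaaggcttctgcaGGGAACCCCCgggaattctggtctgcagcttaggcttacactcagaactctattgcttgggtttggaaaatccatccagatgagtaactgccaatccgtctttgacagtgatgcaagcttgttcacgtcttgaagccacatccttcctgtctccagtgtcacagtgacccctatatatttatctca
The matches did not overlap each other. The Il1a window held an AP-1 match 12 to 6 bases and a PU.1-like match 41 to 36 bases before the start. The Nlrp3 window held an NF-kB-like match 186 to 177 bases before its start. The window of the other annotated Nlrp3 start, not shown, held no NF-kB-like match but 3 PU.1-like ones, 220 to 215, 129 to 124 and 36 to 31 bases before that start. The Il1b window held a match to none of the 5 motifs, which says only that these letters are not in this window. Il1r1 and Il1r2 also had their highest level in TAM-NIC replicate 2. Of their windows, not shown, that of an Il1r1 start held a C/EBP-like match, and that of Il1r2 held no match. An Il1rn window held AP-1 and NF-kB-like matches and the Il1rap window an NF-kB-like match, and both genes had their highest level in other libraries. Of 32851 promoter windows, 6.75% held the AP-1 letters, 23.3% the PU.1-like, 17.6% the NF-kB-like, 9.56% the C/EBP-like and 2.98% the interferon response element-like letters. A match is a description of the letters and does not show binding.

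Il1b stood at 331 and 419.6 CPM in TAM-IC, 322 and 1735 CPM in TAM-NIC, and 40.7 and 51.7 CPM in naive macrophages. All 4 TAM libraries were above both naive libraries, and the TAM groups overlapped. Against naive, the log2 fold change was 3.18 ± 0.78 in TAM-IC (SE, n = 2 per group, adjusted p = 0.191 in edgeR and 0.000388 in DESeq2) and 4.60 ± 0.84 in TAM-NIC (0.219 in edgeR and 4.99e-08 in DESeq2). The first of these was called by edgeR when only the TAM-IC and naive libraries entered the fit (adjusted p = 0.0171). The second was 2.97 without TAM-NIC replicate 2 and 5.31 without replicate 1, fits that leave 1 library in that group. Between the TAM groups the log2 fold change was -1.41 ± 0.73 (adjusted p = 0.379 in edgeR and 0.207 in DESeq2), and it was 0.19 without TAM-NIC replicate 2. The 12 monocyte markers, all detected in every library, also summed higher in TAM than in naive macrophages. The sums were 4778 to 7464 CPM in TAM-IC, 2370 to 3447 CPM in TAM-NIC and 1538 to 2217 CPM in naive macrophages. Over naive, 11 of the 12 had a positive log2 fold change in TAM-IC, but 8 in TAM-NIC, with 4 negative. Nr4a1 made up most of the sum of TAM-NIC replicate 2. It had 417 and 2473 CPM in TAM-IC, 206 and 2071 CPM in TAM-NIC, and 53.7 and 49.5 CPM in naive macrophages. Ccr2 had 191 and 52.4 CPM in TAM-NIC, against 79.7 and 110 CPM in naive macrophages. The part of these markers in the Il1b level was not tested.

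Per unit of transcript length (TPM), Il1a reached 0.0104 and 0.00497 of the Il1b level in TAM-IC, 0.152 and 0.367 of it in TAM-NIC, and 1.13 and 0.393 of it in naive macrophages. The 2 alpha to beta ratios of TAM-IC were below all others, and those of TAM-NIC were below both naive ones. The pairs of genes set against each other here were picked after their values were seen, so the ratios are a description without a test. Because the counting is not stated to use strand and the kit does not mark it, reads of 2 antisense neighbours cannot be separated. Gm14023, which overlaps Il1a, reached at most 9.82 CPM, and Il1bos, which overlaps Il1b, at most 1.67 CPM. Their part in the Il1a and Il1b counts was not tested.

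Il18 encodes interleukin 18, which drives interferon gamma production in T and NK cells and which resident macrophages make without prior stimulation. The gene (ENSMUSG00000039217.12, chromosome 9, 50554827 to 50581840, plus strand) had 23.2 and 9.90 CPM in TAM-IC, 76.8 and 68.6 CPM in TAM-NIC, and 116 and 61.2 CPM in naive macrophages. Both TAM-IC libraries were below the other 4, and the TAM-NIC libraries lay between the naive ones. The log2 fold change of TAM-IC was -2.13 ± 0.49 over TAM-NIC (SE, n = 2 per group, adjusted p = 0.175 in edgeR and 0.00191 in DESeq2) and -2.28 ± 0.49 over naive (0.158 in edgeR and 0.00062 in DESeq2). TAM-NIC over naive gave -0.14 ± 0.47 (adjusted p = 0.924 in edgeR). Leaving out any single library kept the difference between the TAM groups between -2.81 and -1.66. In bulk RNA, fewer cells that express a gene and less RNA per cell cannot be told apart. Resident macrophage markers moved the same way, 15 of 16 having a negative log2 fold change in TAM-IC over TAM-NIC and 15 of 16 over naive, with the sums given above and no marker at 0 in any library. Their part in the lower Il18 was not tested.

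The 5 genes whose log2 CPM ran most like that of Il18 over the 6 macrophage libraries, among 8678 genes, were Mag, Galnt6, Glb1, Slc37a2 and Wdr11, with Pearson correlations of 0.999, 0.997, 0.997, 0.997 and 0.996. For Il1a they were Mrpl38, Gramd1b, Glt8d1, Pla2g12a and Enpp1, with 0.996 for the first and 0.988 for the last, and for Il1b they were Prrc1, Plek, Mtdh, Cd274 and Pkn2, with 0.995 and 0.990. Some of these genes moved far less than the cytokine they tracked, since Mrpl38 had 22.3 and 21.4 CPM in TAM-IC, 25.8 and 31.5 CPM in TAM-NIC and 26.7 and 24.8 CPM in naive macrophages. Cd274, which encodes the checkpoint ligand PD-L1, had 189 and 251 CPM in TAM-IC, 217 and 774 CPM in TAM-NIC, and 34.4 and 26.4 CPM in naive macrophages. These values describe 6 points in 3 groups that share library preparation and depth scaling, and carry no test.

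The soluble inhibitors did not move as a pair. Il18bp, which encodes a secreted protein that binds interleukin 18 and blocks it, was lowest in TAM-IC and highest in TAM-NIC, whereas Il1rn, which encodes the interleukin 1 receptor antagonist, varied as much between replicates as between groups. Il18bp (ENSMUSG00000070427.3, chromosome 7, 102014885 to 102018690, minus strand) had 47.1 and 16.4 CPM in TAM-IC, 603 and 245 CPM in TAM-NIC, and 148 and 86.6 CPM in naive macrophages. The 3 groups did not overlap. The fitted value was a log2 fold change of -3.75 ± 0.72 for TAM-IC over TAM-NIC (SE, n = 2 per group, adjusted p = 0.147 in edgeR and 1.18e-06 in DESeq2). It was -1.74 ± 0.66 for TAM-IC over naive (0.321 in edgeR and 0.0732 in DESeq2) and 2.01 ± 0.67 for TAM-NIC over naive (0.265 in edgeR and 0.037 in DESeq2). With 1 library left out these ran from -4.64 (without TAM-IC replicate 1) to -2.90 (without TAM-NIC replicate 1), from -2.64 (without TAM-IC replicate 1) to -1.21 (without TAM-IC replicate 2), and from 1.13 (without TAM-NIC replicate 1) to 2.52 (without TAM-NIC replicate 2). Exons of Il18bp overlap those of Numa1 on the opposite strand, so reads of the shared stretch cannot be assigned. Numa1 had 105 and 108 CPM in TAM-IC, 98.3 and 60.9 CPM in TAM-NIC, and 120.6 and 81.6 CPM in naive macrophages, above Il18bp in both TAM-IC libraries. Its part in the Il18bp counts was not tested.

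Il18bp exceeded Il18 per length in TAM-NIC, with TPM ratios of 2.68 and 1.22, against 0.692 and 0.565 in TAM-IC and 0.435 and 0.482 in naive macrophages. The TAM-NIC ratios were above those of the other groups, in which the TPM of the cytokine exceeded that of its inhibitor in all 4 libraries. In CPM, which takes no account of length, Il18bp stood above Il18 in every macrophage library. The summed exons ran to 3026 bases for Il18bp and 1031 for Il18, so which was higher in those 4 libraries depended on the length used.

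Il1rn (ENSMUSG00000026981.15, chromosome 2, 24336853 to 24351494, plus strand) had 304 and 42.0 CPM in TAM-IC, 162 and 252 CPM in TAM-NIC, and 95.8 and 149 CPM in naive macrophages. TAM-IC held both the highest and the lowest of the 6 libraries, and TAM-NIC lay above naive by a small margin. The log2 fold changes were -0.26 ± 0.82 for TAM-IC over TAM-NIC, 0.63 ± 0.82 for TAM-IC over naive and 0.89 ± 0.83 for TAM-NIC over naive (SE, n = 2 per group, edgeR adjusted p = 0.903, 0.748 and 0.675). The second turned to -1.34 without TAM-IC replicate 1. The antagonist stood below Il1b in all 6 libraries per length, at 0.317 and 0.0345 of the Il1b TPM in TAM-IC, 0.174 and 0.05 in TAM-NIC, and 0.811 and 0.993 in naive macrophages. The 4 TAM ratios lay below both naive ratios. In CPM, which takes no account of length, Il1rn stood above Il1b in both naive libraries, at 95.8 and 149 against 40.7 and 51.7 CPM. The summed exons ran to 5535 bases for Il1rn and 1907 for Il1b, so the order in naive macrophages depended on the length used. Genes that ran most like Il1rn were Ccr7, Prkcq, Gtf3c5, Gbp7 and Urb2, with correlations of 0.951 to 0.973 over the 6 libraries.

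**Figure D2:**
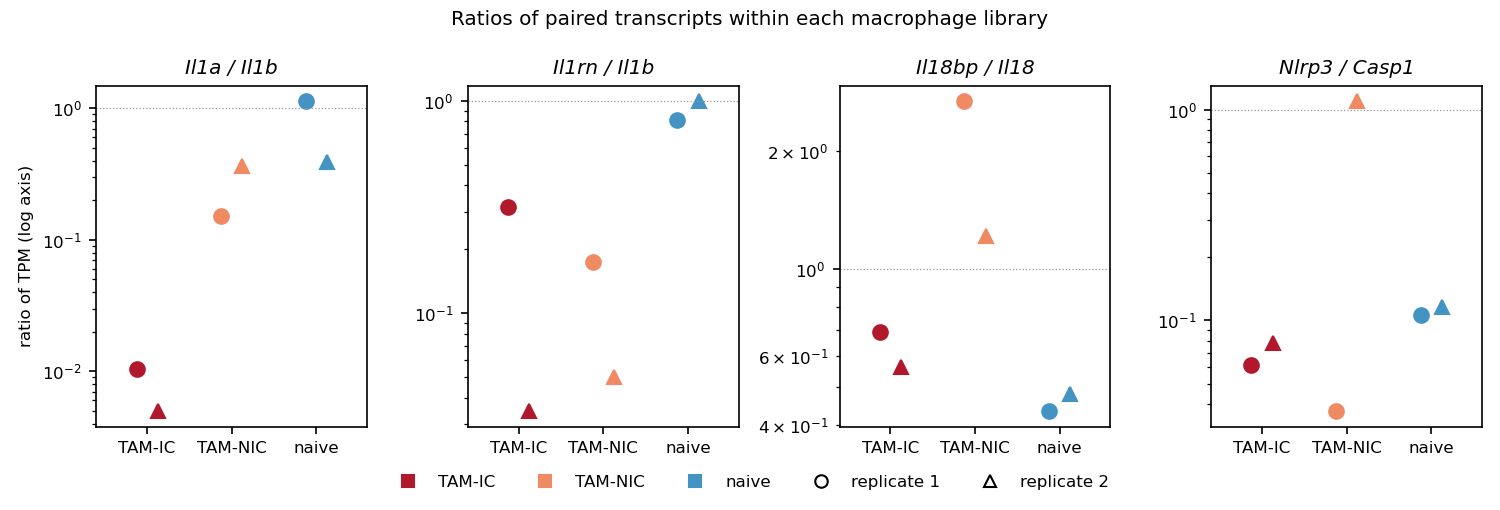
Ratio of the TPM of paired transcripts (log axis, dotted line at equal levels) within each macrophage library, with circles for replicate 1 and triangles for replicate 2. The ratio of Il1a to Il1b is at or under 0.0104 in TAM-IC and at least 0.152 elsewhere, the ratio of Il18bp to Il18 passes equality only in TAM-NIC, and the ratio of Nlrp3 to Casp1 reaches 1.09 in TAM-NIC replicate 2 alone.

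Differences of the receptor chains between groups were called by neither edgeR nor DESeq2, and Il1r1 and Il1r2 varied most between the TAM-NIC replicates. Il1r1, the signalling receptor for both interleukin 1 forms (ENSMUSG00000026072.12, chromosome 1, 40225080 to 40317257, plus strand), was the lowest of the 10 genes per length in every macrophage library, at 0.886 to 3.21 TPM. It had 2.88 and 4.34 CPM in TAM-IC, 1.77 and 7.86 CPM in TAM-NIC, and 3.58 and 3.05 CPM in naive macrophages, and TAM-NIC held both the lowest and the highest library. Il1rap, the accessory chain that the signalling receptor needs (ENSMUSG00000022514.14, chromosome 16, 26581704 to 26730117, plus strand), had 41.5 and 37.9 CPM in TAM-IC, 25.1 and 26.8 CPM in TAM-NIC, and 31.9 and 49.9 CPM in naive macrophages. Its TAM-NIC libraries were below the other 4, with a log2 fold change of 0.63 ± 0.28 for TAM-IC over TAM-NIC and -0.52 ± 0.28 for TAM-NIC over naive (SE, n = 2 per group, edgeR adjusted p = 0.321 and 0.443).

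Il1r2 encodes a decoy receptor that binds interleukin 1 without signalling and is abundant on neutrophils. The gene (ENSMUSG00000026073.13, chromosome 1, 40074079 to 40125231, plus strand) had 49.8 and 21.9 CPM in TAM-IC, 22.4 and 136 CPM in TAM-NIC, and 49.1 and 68.6 CPM in naive macrophages. The groups overlapped in all 3 comparisons, and the log2 fold changes lay between -1.12 ± 0.81 (TAM-IC over TAM-NIC) and 0.55 ± 0.80 (TAM-NIC over naive; SE, n = 2 per group). Per length the decoy exceeded the signalling receptor 57.7- and 16.8-fold in TAM-IC, 42.3- and 57.9-fold in TAM-NIC, and 45.7- and 75.1-fold in naive macrophages. Neutrophil markers were present in every library, at the sums given above, and their part in the Il1r2 level was not tested.

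Of the inflammasome genes, Casp1 was the steadiest member and Nlrp3 depended on 1 library. Casp1, the protease that matures interleukin 1 beta and interleukin 18 (ENSMUSG00000025888.5, chromosome 9, 5298517 to 5307265, plus strand), had 86.2 and 97.3 CPM in TAM-IC, 96.4 and 64.0 CPM in TAM-NIC, and 84.5 and 67.6 CPM in naive macrophages. TAM-IC lay above naive by a small margin, and the other pairs of groups overlapped. Its highest macrophage library was 1.52-fold above its lowest, against 1.99-fold for Il1rap and 305-fold for Il1a. Its log2 fold changes were 0.21 ± 0.30, 0.43 ± 0.30 and 0.22 ± 0.30 in the 3 comparisons (SE, n = 2 per group, edgeR adjusted p = 0.767, 0.534 and 0.786, in the order TAM-IC over TAM-NIC, TAM-IC over naive, TAM-NIC over naive).

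Nlrp3, the inflammasome sensor, whose transcript is known to be induced by NF-kB signalling (ENSMUSG00000032691.14, chromosome 11, 59541568 to 59566956, plus strand), had 14.3 and 20.5 CPM in TAM-IC, 9.65 and 189.6 CPM in TAM-NIC, and 24.2 and 21.2 CPM in naive macrophages. TAM-NIC held both its lowest and its highest library, and TAM-IC lay just under naive. The fitted log2 fold change came to -2.47 ± 1.16 for TAM-IC over TAM-NIC and 2.25 ± 1.15 for TAM-NIC over naive (SE, n = 2 per group, adjusted p = 0.338 and 0.418 in edgeR, 0.094 and 0.168 in DESeq2). Without TAM-NIC replicate 2 these turned to 0.82 and -1.07.

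The same library, TAM-NIC replicate 2, held the highest macrophage value of 5 of the 10 genes, namely Il1a, Il1b, Il1r1, Il1r2 and Nlrp3. The 12 immediate early and stress genes, all detected, summed there to 23678 CPM, against 3854 CPM in replicate 1 of that group, 5571 and 17214 CPM in TAM-IC, and 1022 and 1317 CPM in naive macrophages. The 10 plasma cell markers, all detected, summed to 29455 CPM in that library and 1907 CPM in replicate 1, against 955 to 1007 CPM in TAM-IC and 2130 to 2689 CPM in naive macrophages. The plasma cell libraries had at most 4.28 CPM (Il1b) of those 5 genes. Their counts come from a separate table, and which plasma cells each held is not stated. The part of either list in the 5 highest values was not tested. At the other end, TAM-IC replicate 2 held the lowest value of 5 genes, Il1a, Il1rn, Il18, Il18bp and Il1r2. That library alone among the macrophage libraries had 0 CPM of Xist, and it had 88.4 CPM of Ddx3y, against at most 0.258 CPM elsewhere. The part of this difference between libraries in the lowest values was not tested.

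**Figure D3:**
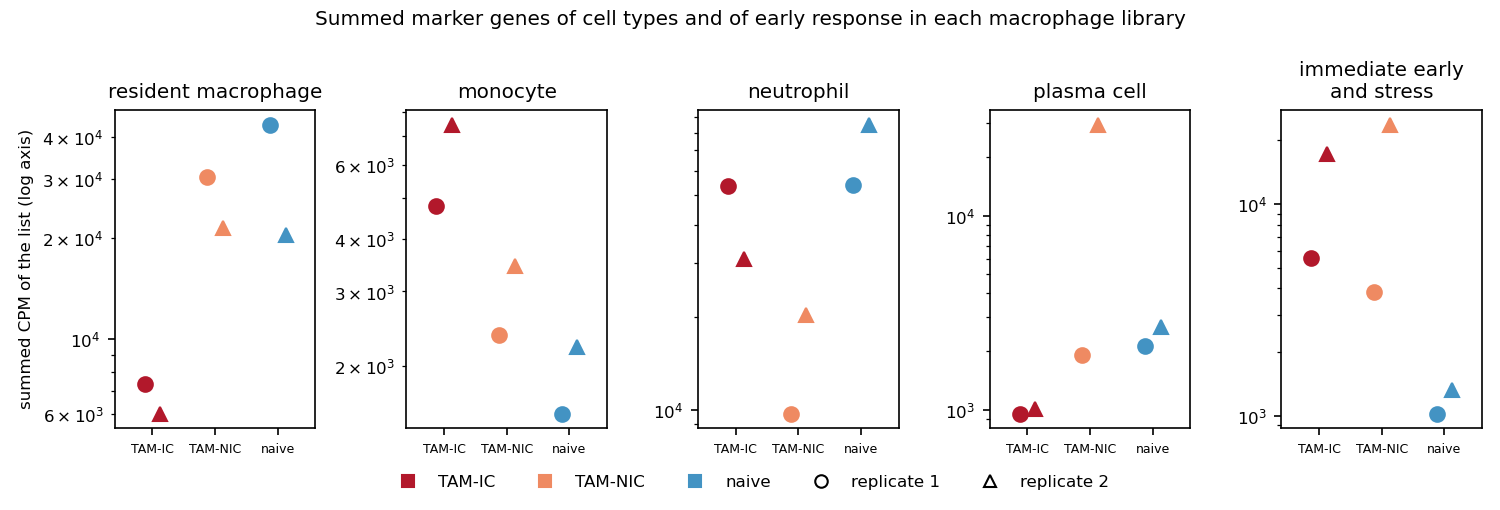
Summed CPM (log axis) of 5 lists of marker genes in each macrophage library, with circles for replicate 1 and triangles for replicate 2. Resident macrophage markers are lowest in TAM-IC (6007 to 7357 CPM), and TAM-NIC replicate 2 has the highest sums of the plasma cell list (29455 CPM) and of the immediate early and stress list (23678 CPM).

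Per length, the order of the genes differed between groups. Il1b was the highest of the 10 in both TAM-IC libraries, at 528 and 689 TPM, ahead of Casp1 at 175 and 204 TPM. In TAM-NIC, Il18bp led in replicate 1 with 637 TPM, ahead of Il1b at 539 TPM, and Il1b led in replicate 2 with 2361 TPM, ahead of Il1a at 867 TPM. In both naive libraries Il18 was the highest, at 356 and 182 TPM, and Casp1 was next at 179 and 138 TPM. Il1b stood there at 67.7 and 82.96 TPM.

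**Figure D4:**
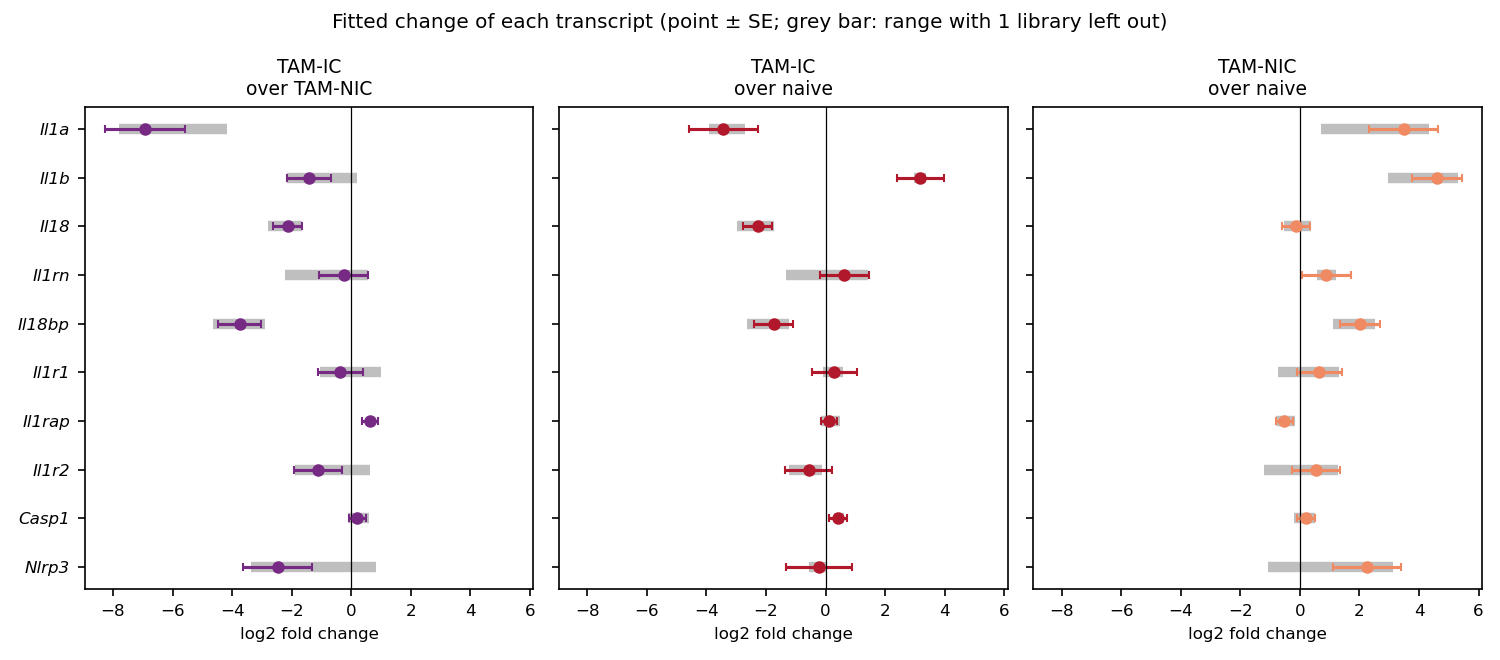
Fitted log2 fold change of each gene in the 3 comparisons (points, with bars for ± SE), and the range of the value when any 1 library is left out (grey bars). Il1a, Il18 and Il18bp stay negative in TAM-IC over TAM-NIC whichever library is left out, while Il1b and Nlrp3 cross zero there.

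Counted over the group, edgeR called 0 of the 10 genes in each comparison. It called 0% of the 15522 genes tested in TAM-IC over TAM-NIC, 0.219% (34 genes) in TAM-IC over naive and 0% in TAM-NIC over naive. At an unadjusted p under 0.05 the genes counted were 3 (Il1a, Il18 and Il18bp), 4 (Il1a, Il1b, Il18 and Il18bp) and 3 (Il1a, Il1b and Il18bp), in the same order of comparisons, against 17.1%, 14.6% and 15.2% of all genes. DESeq2 called 3 in each comparison, against 9.53%, 7.67% and 7.96% of the genes it tested, and limma-voom called 0. The 3 were Il1a, Il18 and Il18bp, all lower, in TAM-IC over TAM-NIC, where DESeq2 called 6.86% of all genes lower. They were Il1a and Il18, both lower (4.76% of all genes), with Il1b, higher (2.91%), in TAM-IC over naive, and Il1a, Il1b and Il18bp, all higher (4.52%), in TAM-NIC over naive. Without TAM-NIC replicate 2, with the lone library of that group taken to vary like the other groups, DESeq2 called 3, 4 and 2 of the 10, against 9.51%, 14.7% and 12.8% of the genes it tested. Il18bp was then called lower in TAM-IC than in naive as well, and Il1a was no longer called in TAM-NIC over naive. The groups' libraries did not overlap for 4 of the 10 genes between the TAM groups, 6 in TAM-IC over naive and 5 in TAM-NIC over naive, close to the shares of all genes, 46.6%, 59.7% and 45.5%. The median log2 fold change of the 10 was -1.27, -0.05 and 0.77, against 0.00, 0.00 and 0.06 over all genes. The comparisons share libraries with each other.

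In plasma cells the 10 transcripts were low. Their counts come from a separate table in which immunoglobulin genes took 67.3% and 70.4% of counts, so no test across tables was made. Casp1 had 18.3 and 13.6 CPM, and the other 9 genes had at most 4.82 CPM, the level of Il18 in replicate 2. Il1r1 was at or near the detection limit, at 0.0122 CPM in replicate 1, under the 0.0367 CPM that a count of 0 allows there, and 0.183 CPM in replicate 2.

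Among other genes of the pathway, 6 lists with 66 genes were followed, and edgeR called 0 of them in any comparison. Of 6 further interleukin 1 family ligands, Il1f5, Il1f6, Il1f8 and Il1f10 had 0 counts in all 6 macrophage libraries. Il33, an alarmin of barrier tissues, had 22 and 0 counts in TAM-IC, 0 and 0 in TAM-NIC, and 13 and 0 in naive macrophages. Il1f9, which encodes interleukin 36 gamma, had 31.02 and 29.5 CPM in TAM-IC, 4.45 and 199 CPM in TAM-NIC, and 97.7 and 140.3 CPM in naive macrophages, so TAM-NIC again held both extremes. Its log2 fold change of TAM-IC over naive was -1.82 ± 1.35 (SE, n = 2 per group, edgeR adjusted p = 0.557).

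Of 7 further receptor genes, 5 could be tested and edgeR called 0 in any comparison. DESeq2 called 2 of them, both lower in TAM-NIC than in naive macrophages, where 3.44% of all genes were called lower. Il18rap, the accessory chain of the interleukin 18 receptor, had 63.4 and 33.3 CPM in TAM-IC, 10.5 and 37.9 CPM in TAM-NIC, and 91.1 and 116 CPM in naive macrophages. Its log2 fold change was -1.97 ± 0.62 for TAM-NIC over naive (SE, n = 2 per group, adjusted p = 0.251 in edgeR and 0.0311 in DESeq2). Il1rl1, the receptor for interleukin 33, had a value of -1.70 ± 0.55 in the same comparison (0.259 in edgeR and 0.0418 in DESeq2). The neutrophil marker sum was also lower in TAM-NIC than in naive macrophages, as given above. The 14 markers of eosinophils, basophils and mast cells summed to 1352 to 1677 CPM in TAM-IC, 248 to 754 CPM in TAM-NIC and 2661 to 3937 CPM in naive macrophages, with Ear6 and Prss34 at 0 in TAM-NIC replicate 1 and no marker at 0 elsewhere. Ccr3 made up most of the TAM-NIC sums, at 169 and 488 CPM, against 14.4 and 21.7 CPM in TAM-IC. In TAM-IC over TAM-NIC 12 of the 14 had a positive log2 fold change and 2, Ccr3 among them, a negative one. The granule gene Epx had 213 and 245 CPM in TAM-IC and 1.69 and 3.87 CPM in TAM-NIC. The part of either set of markers in the Il18rap and Il1rl1 values was not tested. Sigirr, a receptor that dampens interleukin 1 signalling, had 19.4 and 25.4 CPM in TAM-IC and 8.05 and 14.1 CPM in TAM-NIC, a log2 fold change of 1.05 ± 0.44 (edgeR adjusted p = 0.301).

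Of the 16 genes of receptor signalling, edgeR called 0. A total of 14 had a positive log2 fold change in TAM-IC over TAM-NIC, 15 in TAM-IC over naive and 11 in TAM-NIC over naive, with medians of 0.34, 0.51 and 0.16 against 0.00, 0.00 and 0.06 over all genes. DESeq2 called 2, both higher in TAM-IC than in naive macrophages, where 2.91% of all genes were called higher. The adaptor gene Myd88 had 377 and 278 CPM in TAM-IC, against 144 and 174 CPM in naive macrophages, a log2 fold change of 1.19 ± 0.30 (SE, n = 2 per group, adjusted p = 0.198 in edgeR and 0.00901 in DESeq2). Traf6, a ubiquitin ligase downstream of it, had 69.3 and 74.2 CPM in TAM-IC, against 39.6 and 42.3 CPM in naive macrophages, a value of 0.97 ± 0.22 (0.172 in edgeR and 0.0205 in DESeq2). Ikbkb, the kinase that releases NF-kB, had 228 and 406 CPM in TAM-IC and 161 and 174 CPM in TAM-NIC (0.95 ± 0.35, edgeR adjusted p = 0.26). Tab2, an adaptor of the kinase complex between TRAF6 and NF-kB, had 23.7 and 59.4 CPM in TAM-IC and 19.03 and 21.5 CPM in TAM-NIC, so its higher mean came from TAM-IC replicate 2 (1.07 ± 0.46, edgeR adjusted p = 0.311). Irak2, a kinase of the receptor complex, had 92.9 and 148 CPM in TAM-NIC, against 80.4 and 77.99 CPM in naive macrophages (0.74 ± 0.28, edgeR adjusted p = 0.301).

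Of 13 other sensors and adaptors of inflammasomes, DESeq2 called 1 in each comparison, Naip1 where TAM-IC were compared with either group and Nek7 in TAM-NIC over naive. That share is near the 9.53%, 7.67% and 7.96% of all genes it called. Without TAM-NIC replicate 2, which left 1 library in that group, DESeq2 did not call Naip1 in any comparison. Naip1, a gene of the NAIP receptors for bacterial flagellin and secretion systems, had 64 and 243 counts in TAM-IC, 0 and 0 in TAM-NIC, and 0 and 7 in naive macrophages. The NAIP genes are near-identical copies, so the share of reads given to each is uncertain. Nek7, a kinase that NLRP3 needs, had 200.01 and 208 CPM in TAM-IC, 215 and 254 CPM in TAM-NIC, and 141 and 115 CPM in naive macrophages. Its log2 fold change over naive was 0.83 ± 0.26 in TAM-IC and 1.01 ± 0.26 in TAM-NIC (SE, n = 2 per group, adjusted p = 0.256 and 0.228 in edgeR, 0.0834 and 0.0155 in DESeq2). The DNA sensor gene Aim2 had 34.5 and 50.5 CPM in TAM-IC, 31.4 and 29.3 CPM in TAM-NIC, and 27.0 and 21.2 CPM in naive macrophages. Mefv, which encodes the sensor pyrin, had 32.2 and 64.03 CPM in TAM-NIC, against 12.2 and 32.1 CPM in naive macrophages (1.25 ± 0.57, edgeR adjusted p = 0.366). Nlrp6 was near the detection limit, with 2 and 4 counts in TAM-IC, 20 and 41 in TAM-NIC, and 9 and 0 in naive macrophages.

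Of 11 genes for processing, release and pyroptosis, Gsdmd, whose product forms the pore through which mature interleukin 1 beta leaves the cell, had 153 and 171 CPM in TAM-IC, 87.5 and 95.7 CPM in TAM-NIC, and 127 and 151 CPM in naive macrophages. Ninj1, needed for the final rupture of the membrane, had 132 and 86.1 CPM in TAM-IC, 339 and 228 CPM in TAM-NIC, and 300.0 and 185 CPM in naive macrophages. Between the TAM groups neither overlapped. Gsdmd had a log2 fold change of 0.84 ± 0.24 and Ninj1 of -1.38 ± 0.40 (SE, n = 2 per group, adjusted p = 0.205 for each in edgeR, 0.0437 and 0.0226 in DESeq2). Without TAM-NIC replicate 2, DESeq2 still called Ninj1 but not Gsdmd. The calpain genes, whose proteases cut the interleukin 1 alpha precursor, were split. Capn2 had 90.3 and 153 CPM in TAM-IC, 120.4 and 65.5 CPM in TAM-NIC, and 48.2 and 35.6 CPM in naive macrophages, and Capn1 had 87.3 and 70.6 CPM, 48.8 and 53.9 CPM, and 131 and 149.5 CPM in the same groups. DESeq2 called Capn2 higher in TAM-IC than in naive (adjusted p = 0.0161, 0.209 in edgeR) and Capn1 lower in TAM-NIC than in naive (0.00018, 0.219 in edgeR). Gsdme, another pore-forming gasdermin, was called lower by DESeq2 in that comparison too (0.00335, 0.219 in edgeR), with 23.8 and 51.3 CPM in TAM-NIC against 121 and 168 CPM in naive macrophages. Of the 11 genes, DESeq2 called 1 higher and 1 lower between the TAM groups, against 9.53% of all genes in both directions. It called 1 higher in TAM-IC over naive and 2 lower in TAM-NIC over naive, against 2.91% and 3.44% of all genes.

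The 13 genes that interleukin 1 and NF-kB signalling are known to induce leaned to higher values in both TAM groups than in naive macrophages. All 13 had a positive log2 fold change in TAM-NIC over naive and 12 in TAM-IC over naive, and 12 had a negative one in TAM-IC over TAM-NIC, with medians of 4.18, 1.68 and -2.98, against 0.06, 0.00 and 0.00 over all genes. Values that include TAM-NIC depended on replicate 2. Without that library, 11 were positive in TAM-NIC over naive, 12 in TAM-IC over naive and 7 in TAM-IC over TAM-NIC, with medians of 1.08, 1.66 and 0.74, so the median between the TAM groups turned. DESeq2 called 12 of the 13 higher in TAM-NIC than in naive (4.52% of all genes), 3 higher in TAM-IC than in naive (2.91%) and 4 lower in TAM-IC than in TAM-NIC (6.86%), and edgeR called 0. Without that library, which left 1 library in TAM-NIC, DESeq2 called fewer of the 13 higher in TAM-NIC than in naive macrophages. It called more of them, as of all genes, in TAM-IC over naive. Between the TAM groups its calls were then higher rather than lower. The chemokine gene Ccl4 had 107 and 55.8 CPM in TAM-IC, 149 and 413 CPM in TAM-NIC, and 8.32 and 5.30 CPM in naive macrophages. Its groups did not overlap, with a log2 fold change over naive of 3.72 ± 0.61 in TAM-IC and 5.49 ± 0.67 in TAM-NIC (SE, n = 2 per group, adjusted p = 0.0977 and 0.183 in edgeR, 1.11e-07 and 2.05e-16 in DESeq2). Ccl3 had 67.4 and 253 CPM in TAM-IC, 84.9 and 189 CPM in TAM-NIC, and 9.62 and 14.6 CPM in naive macrophages. Tnfaip3, an inhibitor of NF-kB that NF-kB itself induces, had 125 and 131 CPM in TAM-IC, 149 and 2167 CPM in TAM-NIC, and 78.0 and 60.1 CPM in naive macrophages, so its high mean in TAM-NIC came from replicate 2. Immediate early and stress genes moved the same way in that library, as given above, and their part was not tested.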

How the data were processed

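Per the labels' protocols, the SMART-Seq v4 kit was used, which does not mark strand. The authors deposited raw counts of reads for each gene, with 6 macrophage libraries in one table and 2 plasma cell libraries in another, and 0 columns were left without a sample. Per the submitters' processing notes, the tools were featureCounts, STAR and DESeq2 1.26, and the builds GRCm38 and mm10, with no role stated. Not given in the sources used here are the annotation release, whether strand was used and how reads with several matches were handled. GENCODE M21 (GRCm38) gave symbols and coordinates, and held 47224 of the 47643 macrophage identifiers.

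CPM used the library's total count, and TPM the summed exon length of each gene. The 6 macrophage libraries entered one edgeR 4.0.16 quasi-likelihood fit (R 4.3.3) by group. TMM scaling was used, and filterByExpr at its defaults (count 10, total 15) left 15522 genes and 3 residual degrees of freedom. All 3 pairs of groups were compared, with Benjamini-Hochberg adjustment over all genes and a threshold of 0.05. The package's default quasi-dispersion was kept with the counts of calls under both of its settings known. Alternatives were DESeq2 1.42.0, limma-voom 3.58.1, RLE size factors, other filters, no immunoglobulin genes, bias-adjusted quasi-dispersions, fits to 2 groups only, the TAM mouse number as a block, and leaving out each library. DESeq2 without TAM-NIC replicate 2, and the pathway lists with each library left out, were added after seeing the data. The scripts were tested on simulated counts. Tables and figures used Python 3.11.15.

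The 10 genes, the 6 pathway lists and the 6 marker lists given were chosen with earlier results of these data known. The text names all 10 genes, in each pathway list the called genes and the 2 with the smallest p per comparison, and the 5 genes whose log2 CPM (pseudocount 1, mean of at least 3) correlated most with each cytokine and with Il1rn. A few further list genes were named for their counts of 0. No library was left out of the fit.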

Additional observations from a re-analysis of the deposited data

How the results depend on the processing

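Of 450 log2 fold changes of the 10 genes recomputed under 15 other settings, 429 kept their direction and 21 turned. Counts of called genes depended on the tool and on the filter. In TAM-IC over TAM-NIC (0 called by edgeR), DESeq2 called 1558, edgeR without a filter on low counts 1871, bias-adjusted quasi-dispersions 22, and leaving out 1 library 0 to 1510, the last without TAM-NIC replicate 1. In TAM-IC over naive (34 called), DESeq2 called 1180, limma-voom 0, RLE size factors 22, the fit without immunoglobulin genes 20, no filter 1437, bias-adjusted quasi-dispersions 56, the fit to 2 groups only 664, and leaving out 1 library 0 to 534. In TAM-NIC over naive (0 called), DESeq2 called 1263, no filter 1548, and leaving out 1 library 0 to 477. Of the 10 genes, 0 were called in each comparison, against 3, 3 and 3 with DESeq2, 3, 4 and 2 with DESeq2 without TAM-NIC replicate 2 (chosen after seeing the data), 4, 4 and 4 without a filter, 2 in TAM-IC over naive with 2 groups only, and 0 to 3, 0 to 2 and 0 to 3 when 1 library was left out.

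With 1 library left out, values between the TAM groups ran from -2.14 to 0.19 for Il1b, -2.22 to 0.56 for Il1rn, -1.06 to 1.00 for Il1r1, -1.88 to 0.63 for Il1r2, -0.10 to 0.58 for Casp1, -3.38 to 0.82 for Nlrp3 and -2.66 to 2.73 for Il1f9. Each of these turned without TAM-NIC replicate 2, Il1rn also without TAM-IC replicate 2, and none without another library. In TAM-IC over naive they ran from -1.34 to 1.44 for Il1rn, -0.10 to 0.59 for Il1r1, -0.16 to 0.47 for Il1rap, -0.55 to 0.052 for Nlrp3 and -0.036 to 6.25 for Il33, which had 0 counts in 4 libraries. In TAM-NIC over naive they ran from -0.54 to 0.39 for Il18, -0.74 to 1.31 for Il1r1, -1.21 to 1.30 for Il1r2, -0.18 to 0.51 for Casp1, -1.07 to 3.14 for Nlrp3, and -4.56 to 0.83 for Il1f9, for which a value of 0.15 came without naive replicate 2. With limma-voom, Il1r1 turned to 0.0076 and Il1f9 to 0.16 between the TAM groups. The cause of these turns was not tested.

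The labels number the TAM libraries by mouse. Same-numbered libraries deviated from their group means together with a correlation of 0.187 over 12311 genes, but the libraries numbered 2 differed in Xist and Ddx3y, so the number was not taken as a pairing. With the mouse number as a block, 59, 168 and 1 genes were called, and 1 of the 10 genes, Il18bp in TAM-IC over TAM-NIC (adjusted p = 0.0446). Under the block Il1f9 turned to 0.0038 between the TAM groups, Il1r1 to -0.40 in TAM-IC over naive, and Il18 to 0.21, Il1r1 to -0.33 and Il1r2 to -0.034 in TAM-NIC over naive.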
